A study of Rattus norvegicus with 6 samples.

Results

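The metabotropic glutamate receptors described here were Grm2, Grm3, Grm4, Grm5, Grm7 and Grm8, 6 members of this family of G protein-coupled receptors chosen by gene symbol out of 15168 genes named on the array. The arrays carried 7 probes for these 6 genes, out of 30367 probes in all, and each of the 7 was well above background on all 6 arrays and was therefore among the 22768 probes tested. Grm4 had a pair of probes and every other member had 1. Each of these probes was printed as 1 spot per array.

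Hippocampal RNA from male Sprague Dawley (SD) rats was hybridised to single-colour Agilent arrays, 1 sample per array. The AD group (3 arrays) came from rats that had received amyloid-beta (Aβ1-42) oligomers in the cerebral ventricles. The Sham group (3 arrays) came from rats given only the vehicle, on both sides, in the lateral ventricles. No genetic change is named for either group, the methods describe the animals as adults, and neither the time from injection to sampling nor the animal behind each array is given in the sources used here. AD is the study's name for a model made by injecting a peptide, and each p-value covers only the spread from one array to the next within a group. Levels are log2 processed signal minus the 75th percentile of the same array, so a level of 0 is that percentile, and a change is the mean AD level minus the mean Sham level on this scale.

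Metabotropic glutamate receptors bind glutamate at an extracellular domain and act through G proteins rather than through a channel pore. Group I, to which mGlu5 (from Grm5) belongs, couples to Gq and phospholipase C, is found mostly on the postsynaptic side and drives a form of hippocampal long-term depression. Group II (mGlu2 and mGlu3, from Grm2 and Grm3) and group III (mGlu4, mGlu6, mGlu7 and mGlu8, from Grm4, Grm6, Grm7 and Grm8) couple to Gi/o, lower cAMP and are known mainly as brakes on transmitter release. mGlu3 and mGlu5 are also found on astrocytes.

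Both members that passed the test, Grm7 and Grm8, were lower in AD. For that reason the sequence just upstream of each is shown first, from RefSeq on the rat assembly GRCr8, as the 250 bases that end 1 base before the annotated start. The Grm7 stretch lies on the plus strand at chr4:145286476-145286725 and the Grm8 stretch on the minus strand at chr4:57687507-57687756. Both are printed 5′ to 3′, with capitals marking GC boxes (GGGCGG or its reverse complement CCGCCC).
Grm7: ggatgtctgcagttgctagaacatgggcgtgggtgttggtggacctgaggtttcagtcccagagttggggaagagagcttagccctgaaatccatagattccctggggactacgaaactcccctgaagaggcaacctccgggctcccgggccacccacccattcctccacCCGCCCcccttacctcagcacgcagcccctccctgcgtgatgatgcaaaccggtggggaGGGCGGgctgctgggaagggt
Grm8: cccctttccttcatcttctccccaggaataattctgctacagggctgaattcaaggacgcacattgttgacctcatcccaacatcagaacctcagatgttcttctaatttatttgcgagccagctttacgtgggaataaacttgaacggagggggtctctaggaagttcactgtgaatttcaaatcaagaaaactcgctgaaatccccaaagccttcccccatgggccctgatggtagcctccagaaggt
The Grm7 stretch was 62.0% G and C and held 2 GC boxes, which began 80 and 21 bases before the start. The Grm8 stretch was 47.2% G and C and held none. Over 33469 rat promoter stretches of the same length the median was 51.2% G and C, and 30.5% held a GC box on either strand. Neither stretch held TGACG or CGTCA, the core of the cAMP response element (found in 18.2% of the stretches), or TATAAA or TTTATA, the TATA box (12.9%). Of the 6 members, 3 were in the promoter table. The other of these, Grm5, was 36.4% G and C and held none of the motifs.

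Grm7 encodes mGlu7, a presynaptic receptor of the active zone with low affinity for glutamate. Its level was −1.80, −1.59 and −1.86 in AD replicates 1 to 3 and −1.32, −1.34 and −1.33 in Sham replicates 1 to 3. Every AD array lay below every Sham array, and the Sham levels were nearly identical after scaling. Their spread was smaller than the error of a single spot at this brightness (SD 0.061 to 0.088, log2), so it does not measure precision. The mean level was −1.75 ± 0.144 (SD, n = 3) in AD and −1.33 ± 0.00614 (SD, n = 3) in Sham. The change was −0.42 ± 0.10 (SE), with a 95% interval from −0.66 to −0.18, so the signal was 1.34-fold lower in AD (limma, adjusted p = 0.0468).

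Grm8 encodes mGlu8, a presynaptic receptor with high affinity for glutamate. Its level was −2.82, −3.02 and −2.76 in AD and −2.24, −2.45 and −2.47 in Sham, and the groups did not overlap here either. The means were −2.87 ± 0.136 (SD, n = 3) in AD and −2.39 ± 0.123 (SD, n = 3) in Sham. The change was −0.48 ± 0.11 (SE), with a 95% interval from −0.75 to −0.21, and the signal was 1.39-fold lower in AD (limma, adjusted p = 0.0457).

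Grm4, which encodes mGlu4, did not pass the test with either probe. The probe A_43_P15406 gave 0.59, 0.50 and 0.59 in AD and 0.58, 0.63 and 0.89 in Sham, a change of −0.14 ± 0.11 (SE, 95% interval −0.40 to 0.13; limma, adjusted p = 0.435). The probe A_64_P163070 gave 0.43, −0.08 and 0.07 in AD and −0.11, −0.11 and 0.25 in Sham, a change of 0.13 ± 0.17 (SE, 95% interval −0.28 to 0.55; limma, adjusted p = 0.631). The groups overlapped with both probes, and the sign of the change differed between them. Without AD replicate 1, the highest of the AD arrays with the second probe, its change was −0.010.

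The group II receptor Grm3 was higher on every AD array than on any Sham array, but missed the threshold after adjustment. mGlu3 is found on neurons and astrocytes. The Grm3 level was −0.58, −0.53 and −0.49 in AD and −0.79, −0.93 and −1.17 in Sham. The means were −0.53 ± 0.0469 (SD, n = 3) and −0.96 ± 0.190 (SD, n = 3). The change was 0.43 ± 0.12 (SE), with a 95% interval from 0.14 to 0.72, or 1.35-fold (limma, unadjusted p = 0.0101, adjusted p = 0.0629). Scaling each array to the 75th percentile of the detected probes alone gave 0.51 and a call (limma, adjusted p = 0.0477), and moved the median change of all probes from −0.011 to 0.072.

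Grm2 encodes mGlu2, the presynaptic group II receptor, which is prominent in dentate granule cells. Its level was 1.40, 1.33 and 1.29 in AD and 1.21, 1.32 and 1.90 in Sham. Sham replicate 3 stood above the other 5 arrays, which lay between 1.21 and 1.40. The change was −0.14 ± 0.19 (SE), with a 95% interval from −0.60 to 0.33 (limma, adjusted p = 0.665), and it was 0.077 without Sham replicate 3.

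The group I member Grm5, the major mGlu receptor of pyramidal cell dendrites, had levels of −1.09, −1.26 and −1.09 in AD and −1.18, −1.37 and −1.27 in Sham. The groups overlapped. The change was 0.12 ± 0.098 (SE), and its 95% interval from −0.12 to 0.36 leaves room for a modest change either way (limma, adjusted p = 0.436).

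**Figure D1:**
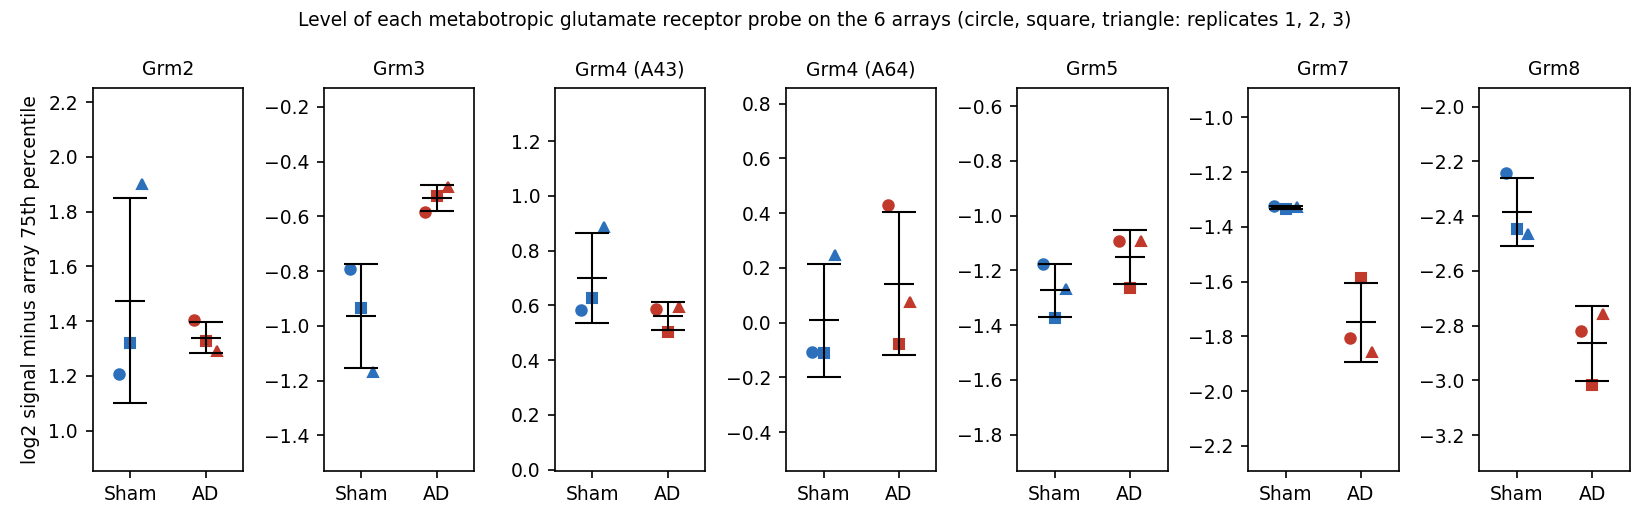
Level (log2 signal minus the array's 75th percentile, vertical axis) of the 7 member probes on the 3 Sham arrays (blue) and the 3 AD arrays (red), with the mean and SD in black. Each panel spans the same height of log2 units around its own centre. Grm7 and Grm8 are lower on all 3 AD arrays, Grm3 is higher on all 3, and the groups overlap for Grm2, Grm4 and Grm5.

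Among the 7 member probes, 2 were called lower and 0 higher (limma, adjusted p under 0.05), and 3 had an unadjusted p under 0.05, Grm3 as the 1 that was higher. Of all tested probes 8.4% were called lower, 4.15% higher and 12.6% either way, which is the background for these counts. The groups did not overlap for 3 member probes, 1 with AD above and 2 with AD below, against 39% of all tested probes (15.6% above and 23.4% below). The size of the change exceeded that of 74.98% of tested probes for Grm7, 80.2% for Grm8 and 76.0% for Grm3. None of the member probes (0) met the study's own criteria of a 2-fold change with an unadjusted p under 0.05, and 327 of all tested probes did. With the methods' t-test and the same adjustment 0 member probes passed.

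Neither of the calls was secure. Across 22 other settings Grm7 stayed lower, with changes from −0.50 to −0.34, and kept its call in 6. Grm8 stayed lower, from −0.53 to −0.40, and kept its call in 11. Grm3 stayed higher in all 22, from 0.27 to 0.52, and was called in 4. Among these settings, scan day as a block and leaving out Sham replicate 3 gave identical values, so they are not separate checks. The AD arrays shared 1 scan, Sham replicates 1 and 2 shared another and Sham replicate 3 was scanned apart from both, so scan and group cannot be told apart, and with scan as a random block the adjusted p was 0.296 for Grm7 and 0.297 for Grm8 (limma). Within the scan day that held both groups, which leaves out Sham replicate 3, the changes were −0.42 for Grm7 (limma, adjusted p = 0.0526), −0.52 for Grm8 (adjusted p = 0.0424) and 0.33 for Grm3 (adjusted p = 0.0514).

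**Figure D2:**
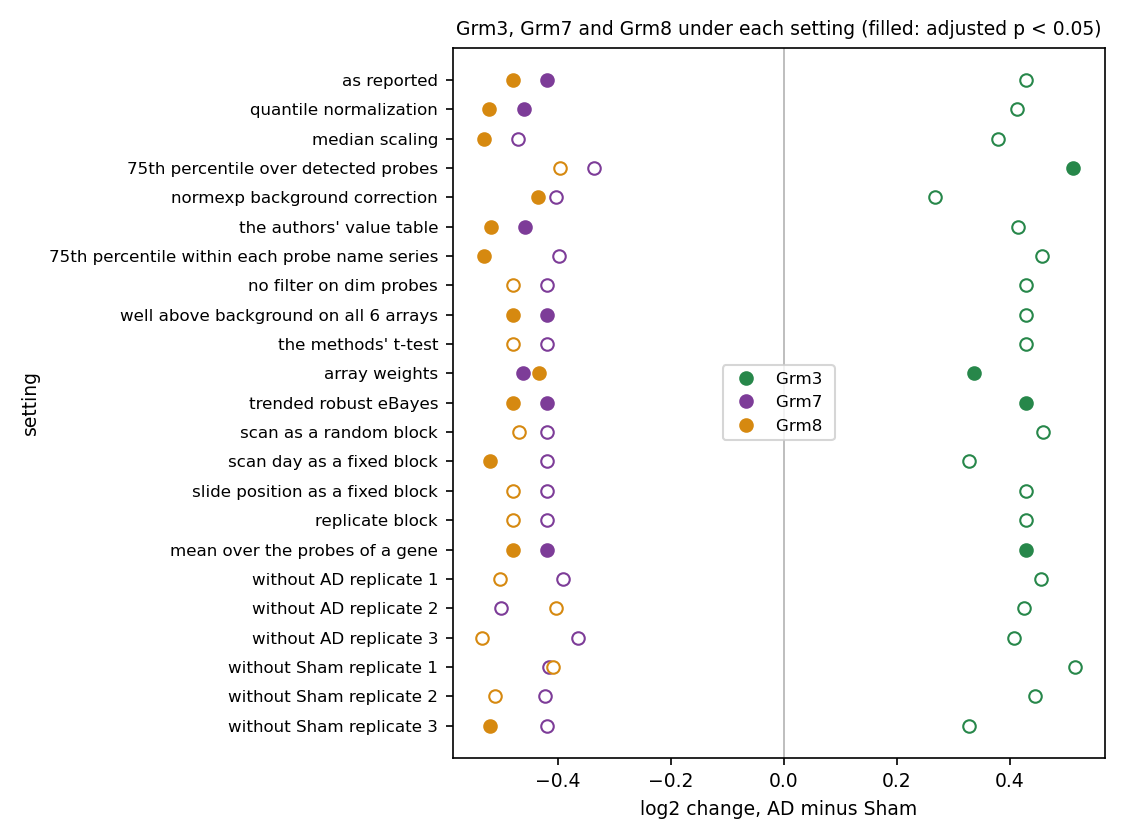
Change of Grm3, Grm7 and Grm8 (AD minus Sham, log2, horizontal axis) as reported and under the 22 other settings (vertical axis). Filled points have an adjusted p under 0.05. Grm3 stays between 0.27 and 0.52 and Grm7 and Grm8 between −0.53 and −0.34, while the calls come and go.

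Differences between receptors within an array do not depend on how the array is scaled. They were taken only among Grm3, Grm5, Grm7 and Grm8, and not for Grm2 or Grm4. Among these pairs, those of Grm3 and Grm5 from Grm7 and Grm8 shifted the most. The probes differ in response, so only the change of such a difference has a meaning. Grm3 minus Grm7 was 1.22, 1.06 and 1.37 in AD and 0.53, 0.40 and 0.16 in Sham, a shift of 0.85. Grm3 minus Grm8 was 2.24, 2.49 and 2.27 in AD and 1.45, 1.51 and 1.30 in Sham, a shift of 0.91. All 3 AD arrays were above all 3 Sham arrays in both differences. Grm5 minus Grm8 was 1.73, 1.75 and 1.67 in AD and 1.06, 1.07 and 1.20 in Sham, a shift of 0.60 without overlap. Grm5 minus Grm7 shifted by 0.54, again without overlap. Grm3 minus Grm5 was 0.51, 0.74 and 0.60 in AD and 0.39, 0.44 and 0.10 in Sham, a shift of 0.31 that also left no overlap. Grm8 minus Grm7 overlapped between the groups and shifted by −0.061. These pairs were chosen after the levels were known, so they were not tested.

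Grm6, a group III receptor known from the retina, lies outside the chosen set. It gave −2.89, −2.82 and −3.03 in AD and −2.63, −2.77 and −2.47 in Sham. The AD arrays were all lower, but the change of −0.29 ± 0.11 (SE) did not pass the test (limma, adjusted p = 0.146).

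**Figure D3:**
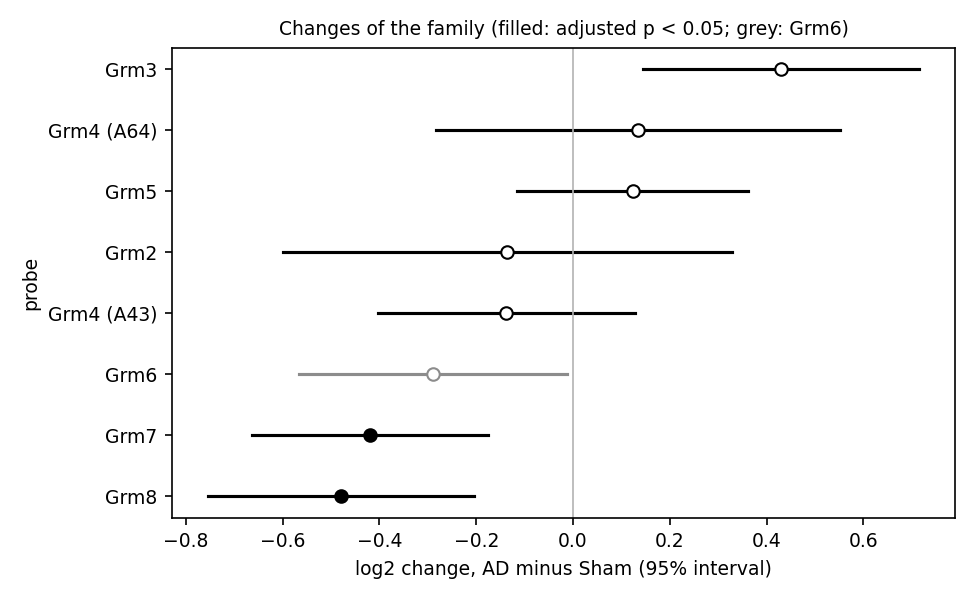
Change (AD minus Sham, log2) of 8 probes of the family, with 95% intervals. Black marks the 7 member probes and grey the Grm6 probe, and filled points have an adjusted p under 0.05. The intervals of Grm7 and Grm8 lie below 0 and that of Grm3 above 0.

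The direction of change followed the kind of probe name over these 8 probes. All 4 probes named A_43 or A_44 had a negative change, and 3 of the 4 named A_64 had a positive one, Grm6 being the exception. Over the array the median change was −0.013 for A_64 probes and −0.0086 for the others, but the series that make up the others differed. It was −0.080 for A_43 probes, to which Grm2, Grm7 and 1 Grm4 probe belong, with 14.6% called lower and 4.86% higher, and 0.026 for A_44 probes, to which Grm8 belongs, with 6.18% called each way. Of the A_64 probes 8.14% were called lower and 3.04% higher. In 944 genes with both kinds the median difference, A_64 minus other, was 0.030. Scaling each series of names separately left Grm7 lower but without a call (limma, adjusted p = 0.0567). The part of probe design in this pattern was not tested.

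The signals of the members were above the level where the scanner's flag ends. Relative to the lowest signal of any probe well above background on the same array, Grm8 was 6.28-fold to 14.1-fold brighter, Grm7 16.9-fold to 26.3-fold and Grm3 24.2-fold to 67.8-fold. Repeated spots of other probes of like brightness had a typical SD within an array of 0.061 to 0.088 (log2) for Grm7, 0.069 to 0.087 for Grm8 and 0.058 to 0.088 for Grm3. This covers spot error within an array and none of the variation between arrays.

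Markers of neurons and interneurons were lower in AD, as Grm7 and Grm8 were. In whole tissue, fewer cells of a type and less RNA per cell cannot be told apart. All 9 tested neuronal markers had a lower mean in AD, 6 of them past the test, with a median change of −0.45. Their summed signal, in units of the array's 75th percentile, was 72.9 to 76.2 in AD and 94.4 to 111 in Sham. All 10 interneuron markers had a lower mean, 5 past the test, with a median change of −0.73 and summed signals of 44.2 to 47.3 in AD and 74.7 to 79.5 in Sham. Of 10 tested astrocyte markers none (0) passed the test in limma, 1 had an unadjusted p under 0.05, 4 had a higher and 6 a lower mean, and the summed signals overlapped, at 199 to 237 in AD and 226 to 269 in Sham. The astrocyte list had a median change of −0.17 and a mean change of 0.0079. These counts use the brightest probe of each gene, and other probes of S100b (1.58, limma, adjusted p = 0.0189) and Slc1a3 (−0.44, limma, adjusted p = 0.0284) did pass, in opposite directions.

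Measured against the mean level of the 9 neuronal markers on the same array, Grm7 and Grm8 no longer differed in level between the groups by more than their spread. The Grm7 difference was −3.77, −3.50 and −3.80 in AD and −3.69, −3.67 and −3.76 in Sham, a shift of 0.017 with overlap. The Grm8 difference was −4.79, −4.93 and −4.70 in AD and −4.61, −4.78 and −4.89 in Sham, a shift of −0.043 with overlap. On the same footing Grm3 was −2.55, −2.44 and −2.43 in AD and −3.16, −3.27 and −3.59 in Sham, a shift of 0.87, and Grm5 shifted by 0.56, both with every AD array above every Sham array. Both Grm4 probes were also above, by 0.30 and 0.57, while Grm2 overlapped with a shift of 0.30. Each shift is the probe's own change minus the mean change of the markers, which was −0.44 for the neuronal list. A probe without any change would thus move up by as much, and the share of all tested probes that would do so was not taken. Against the mean of the 10 astrocyte markers, Grm7 shifted by −0.43, Grm8 by −0.49 and Grm3 by 0.42 without overlap, and Grm5 overlapped with a shift of 0.12. Against the mean of the 10 interneuron markers, whose own mean change was −0.71, the direction turned, which follows from subtracting that larger fall. Grm7 shifted by 0.29 and Grm8 by 0.23, with every AD array above every Sham array, and Grm3 shifted by 1.14. Whether the lower Grm7 and Grm8 signal came from the cells behind the neuronal markers was not tested.

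Markers of hippocampal regions and of neighbouring tissue did not move as one. The summed signal of 6 dentate granule markers overlapped, at 3.59 to 3.88 in AD and 3.60 to 3.73 in Sham. The 5 CA1 markers summed to 13.1 to 15.1 in AD and 18.0 to 21.0 in Sham, with 1 called higher and 1, Fibcd1, lower and a median change of 0.26. The 4 CA3 markers summed to 16.0 to 18.0 in AD and 18.5 to 21.3 in Sham, but the only call was higher (Prss35, 0.49, limma, adjusted p = 0.0303) and the median change was 0.034. These sums follow the brightest genes, so a sum and a median can differ in sign. The 9 tested choroid plexus markers all had a higher mean in AD, with none (0) called by limma, 6 at an unadjusted p under 0.05, a median change of 2.27 and sums of 82.1 to 144 in AD and 27.4 to 103 in Sham. Oligodendrocyte markers were called higher in 5 of 10, with a median change of 0.40, while their sums overlapped, at 106 to 126 in AD and 116 to 168 in Sham, and a second probe of Mbp was called lower (−0.68, limma, adjusted p = 0.0487). Microglial markers were called in none (0) of 10 in either direction (limma, with 0 at an unadjusted p under 0.05). The sums of 8 striatal markers overlapped, at 6.59 to 7.06 in AD and 6.39 to 7.07 in Sham, with a median change of 0.14. Of these markers 1 was called higher (Ppp1r1b, 0.80, limma, adjusted p = 0.0285) and 0 lower. At an unadjusted p under 0.05 (limma) 3 were higher and 1 lower. A second probe of Pde10a was called higher (0.48, limma, adjusted p = 0.0465). The sums of 6 thalamic markers were 2.15 to 2.50 in AD and 2.53 to 2.61 in Sham, with 1 called each way (Ntng1 lower, Lef1 higher) and a median change of 0.22. Those of 4 cerebellar granule cell markers were 0.664 to 0.853 in AD and 1.08 to 1.58 in Sham, with 1 called lower (Cbln1), 3 with a higher mean and a median change of 0.42, and with the defining cerebellar markers Gabra6 and Fat2 not well above background often enough to be tested. The part of these tissues in the receptor values was not tested.

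The genes that act with the receptors were taken as lists by role. Of 84 listed genes 77 were tested, 3 were called higher (3.9%, against 4.15% of all tested probes) and 6 lower (7.79%, against 8.4%), and their median change was −0.070, against −0.011 for all tested probes. The shares called were thus near the background in both directions.

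In the Gq list, 3 of 12 tested genes were called lower and 0 higher, with a median change of −0.12. The list was split, with 6 higher and 6 lower means, and at an unadjusted p under 0.05 (limma) 4 were lower and 1 higher. The higher one, the alpha subunit gene Gna11, changed by 0.33 ± 0.11 (SE) and was not called (limma, adjusted p = 0.0966). Gnaq, the alpha subunit of Gq that couples group I receptors to phospholipase C, was −1.93, −1.93 and −1.89 in AD and −1.50, −1.57 and −1.35 in Sham, a change of −0.44 ± 0.091 (SE, limma, adjusted p = 0.0341). Trpc5, a cation channel opened downstream of Gq, changed by −0.73 ± 0.14 (SE, limma, adjusted p = 0.0314). Trpc1, a subunit of related channels, changed by −0.76 ± 0.12 (SE, limma, adjusted p = 0.0223), while its second probe changed by −0.17 and was not called. A second probe of Prkcb, a protein kinase C gene of this list, was called higher (0.35, limma, adjusted p = 0.0409). Itpr1, the receptor for inositol trisphosphate, had probes that differed in sign, so no direction is given for it.

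Of the 7 scaffold genes of the Homer and Shank families, which tie group I receptors to the postsynaptic density, 1 was called higher and 0 lower, with a median change of −0.037. This was Homer2, with levels of −1.50, −1.38 and −1.74 in AD and −2.54, −2.51 and −2.54 in Sham. The AD arrays lay far above the Sham arrays, a change of 0.99 ± 0.11 (SE, limma, adjusted p = 0.0183). It was higher in all 22 other settings, by 0.62 to 1.09, and was called in 14 of them.

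The Gi/o and cAMP list covers the G proteins, adenylyl cyclases, kinase subunits and potassium channels through which group II and III receptors act. Of its 21 tested genes 0 were called higher and 2 lower, with a median change of −0.10. Gnai3, an inhibitory G protein alpha subunit, was 2.64, 2.71 and 2.52 in AD and 3.17, 3.17 and 3.09 in Sham, a change of −0.52 ± 0.089 (SE, limma, adjusted p = 0.0251). Prkar1a, a regulatory subunit of the cAMP-dependent kinase, changed by −0.50 ± 0.10 (SE, limma, adjusted p = 0.0335).

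None (0) of the 18 genes for kinases, arrestins, calmodulin and scaffolds that regulate the receptors was called by limma, with 3 lower and 1 higher at an unadjusted p under 0.05, and their median change was −0.073. The largest changes were in Calm2, one of the calmodulin genes (−0.60 ± 0.15, SE; limma, adjusted p = 0.0501), and in Arrb1, which encodes beta-arrestin 1 (−0.39 ± 0.11, SE; limma, adjusted p = 0.0713). The other Calm2 probes gave −0.41 and 0.21. Elfn1, the postsynaptic protein that recruits mGlu7 across the synapse, was −5.19, −5.20 and −5.61 in AD and −5.66, −4.97 and −5.35 in Sham, with a change of −0.0042 ± 0.21 (SE, limma, adjusted p = 0.992). The Elfn1 probe was not well above background on every array, so a change could be missed this near the floor.

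Of 9 genes for glutamate transport and metabolism 1 was called lower and 0 higher, with a median change of −0.28. At an unadjusted p under 0.05 there were 3 lower and 1 higher, and a second probe of the transporter gene Slc1a3 was called lower (−0.44, limma, adjusted p = 0.0284).

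Of 9 tested genes of group I long-term depression and its local translation, 2 were called higher and 0 lower, with a median change of 0.15. Arc, an immediate early gene product that promotes removal of AMPA receptors, was 2.93, 2.77 and 3.08 in AD and 1.37, 1.73 and 2.29 in Sham, a change of 1.13 ± 0.24 (SE, limma, adjusted p = 0.0360).

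**Figure D4:**
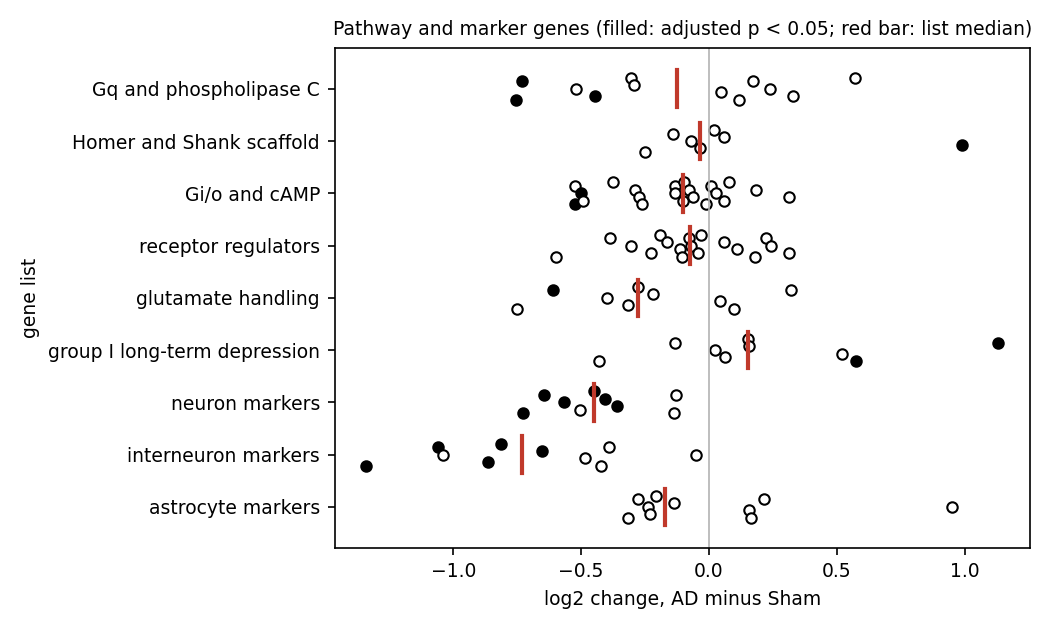
Change (AD minus Sham, log2, horizontal axis) of each tested gene in the pathway lists, without Elfn1, and in the neuron, interneuron and astrocyte marker lists. Each gene is 1 point, at its brightest probe. Filled points have an adjusted p under 0.05 and red bars are list medians. The pathway medians run from −0.28 to 0.15, and the neuron and interneuron medians are −0.45 and −0.73.

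The genes whose levels over the 6 arrays were most like those of Grm7 were Rab6b (Pearson r = 0.997), Ccdc167 (0.997) and Dym (0.996), and those most like Grm8 were Lrrc51 (0.995), Dus4l (0.995) and Enpp4 (0.993). These were the highest of 14137 named probes compared. With 6 arrays in 2 groups that share their scans, 1561 of these probes passed 0.9 with Grm7 and 472 with Grm8. The number that came near the values above was not counted, and the ranking alone shows no link between genes.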

How the data were processed

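Hippocampal RNA of 3 AD and 3 Sham rats' tissue samples was labelled with Cy3, and groups came from the sample labels. The deposited scanner files, made per the labels with Agilent Feature Extraction 11.0.1.1, hold a processed intensity per spot, already background-subtracted. The authors also deposited a table of log2 values whose scaling is not stated. Its columns for AD replicates 2 and 3 matched each other's scanner files (r of 0.994 and 0.999), which leaves the group comparison as it is. Replicate numbers here follow the scanner files.

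Of 44254 spots per array, 42877 were not controls. Outlier spots (400 to 559 per array) were left out, spots of a probe were averaged on the log2 scale and the array's 75th percentile (429 to 932 intensity units) was subtracted. The 429 was that of Sham replicate 3, and every other array lay between 753 and 932. Sham replicate 3 correlated with Sham replicates 1 and 2 at 0.979 and 0.982 (Pearson r), against 0.993 between replicates 1 and 2. Pairs of an AD and a Sham array correlated at 0.976 to 0.987. Probes well above background on at least 3 of 6 arrays were tested with limma 3.58.1 in R 4.3.3 (lmFit and eBayes, no covariates), with Benjamini-Hochberg adjustment over all 22768 and a threshold of 0.05. The number of arrays limits the precision. Accessions were matched to RefSeq symbols of GRCr8, 15252 of 26997, which named 59.3% of probes. Genes with several probes were counted at the brightest. The script was tested on simulated data.

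The members and the gene lists were chosen with earlier results of these data known. Named were all members with every probe, Grm6, up to 4 called genes per pathway list or else the 2 with the largest change, up to 2 genes per marker list, and the 3 probes most like each member with the lowest p. Itpr1, Prkcb, Gna11, S100b, Slc1a3, Mbp, Pde10a, Gabra6 and Fat2 were named after their values were seen. Some genes the rule would name are not reported here. The normexp alternative used median spot signals with an offset of 50, since the files hold no mean signal column. The scan block used statmod 1.5.0.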

Additional observations from a re-analysis of the deposited data

How the results depend on the processing

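Grm3, Grm7 and Grm8 kept their direction in all 22 alternatives, as did Grm5, the Grm4 probe A_43_P15406 and Grm6, but calls did not hold. Against 2 member probes called lower, 1 was called with median scaling, with normexp, with scan day as a block and with the percentile taken within each probe name series (chosen after seeing the data), and 0 with the percentile over detected probes, without a filter, with the methods' t-test, and with scan as a random block, slide position or the replicate number as a block. Against 0 called higher, 1 was called with the percentile over detected probes, with a trended robust eBayes and with the mean over probes of a gene, and 2 with array weights, whose estimation did not fully converge. Against 2858 of all probes called, there were 1769 with normexp, 352 without a filter (30297 probes), 1848 with the t-test, 9872 with array weights, 4468 with scan day, and 0 with scan as a random block (3672 at an unadjusted p under 0.05), slide position or the replicate block. Against 6 pathway genes called lower and 3 higher, array weights called 21 and 12, scan day called 6 higher, no filter called 0 lower and 1 higher, and scan as a random block, slide position and the replicate block called 0 each way. Leaving out single arrays gave 0 to 1 member probes called lower, 0 to 4468 probes in all, and 0 to 7 pathway genes lower and 0 to 6 higher. The highest count in each case was without Sham replicate 3, which leaves 2 Sham arrays and gives the same values as scan day. Single probes that turned sign were Grm2 (0.066 with array weights, 0.077 with scan day, and −0.27 to 0.077 when single arrays were left out), the Grm4 probe A_64_P163070 (−0.010 to 0.25 when single arrays were left out, the lowest without AD replicate 1, and −0.0017 as the mean of both probes) and Elfn1 (0.079 with the percentile over detected probes, 0.024 within each probe name series, and −0.17 to 0.17 when single arrays were left out). The share of all called probes that were higher was 33.1%, against 17.5% with normexp, 53.2% with the percentile over detected probes, 46.1% with array weights and 44.7% with scan day. The median change of all probes moved from −0.011 to −0.15 with normexp. The labels give no pairing beyond shared replicate numbers. Deviations of same-numbered arrays correlated at 0.028, 0.072 and 0.14, and those of the other AD and Sham pairs at −0.12 to 0.064. Values this small cannot settle whether the samples were paired. Under the replicate block the adjusted p was 0.111 for Grm7 and 0.0987 for Grm8 (limma). The causes of these shifts were not tested.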
